A study of Mus musculus with 2 samples.

Results

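Killer cell lectin-like receptors are C-type lectin-like proteins on natural killer (NK) cells and on some T cells, and 10 of their genes were followed here through lymphocytes from mouse omentum, an abdominal adipose tissue whose milky spots hold immune cells. The genes were taken by symbol, namely *Klra1*, *Klra4*, *Klra6*, *Klra7*, *Klra8*, *Klrd1*, *Klrk1*, *Klrb1c*, *Klre1* and *Klrg1*, and stood beside 16 other listed genes of the family among 19960 genes in all. All 10 had unique molecular identifiers (UMIs, tags that count single captured transcripts) in both libraries, and they were read in NK-like, NKT-like, CD8 T-like, γδ T-like and regulatory T (Treg)-like cells. A WT library was compared with a DTR library, made from mice in which the diphtheria toxin (DT) receptor had been placed in the *Postn* locus of 1 allele so that *Postn*-expressing cells can be removed. Both groups received DT and were sampled at 5 d, the mice of a group were pooled into 1 library, and neither age nor sex is given by the labels. The WT library was therefore a toxin-treated control without the receptor, and the DTR allele acts in every cell that uses the *Postn* promoter, not in lymphocytes by design. With 1 library per group there is no replicate, so that every interval given here covers counting error only and no test between groups was made.

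Receptors of this family read the state of neighboring cells. Inhibitory members bind MHC class I molecules or cadherins and carry an immunoreceptor tyrosine-based inhibitory motif that recruits phosphatases, whereas activating members lack the motif and pair with the adaptors DAP12 (*Tyrobp*), DAP10 (*Hcst*) or the Fc receptor gamma chain (*Fcer1g*). In mouse NK cells, the Ly49 receptors encoded by the *Klra* genes are switched on in overlapping subsets of cells, while CD94 (*Klrd1*), NKG2D (*Klrk1*) and NK1.1 (*Klrb1c*) are found more broadly.

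All 10 genes lie on chromosome 6 of GRCm38, the assembly also known as mm10. *Klrg1* stands apart at chr6:122270596-122282882, and the other 9 fall within 1608.4 kb. From *Klrb1c* (chr6:128778485-128789215) the order runs through *Klre1* (chr6:129577905-129585827), *Klrd1* (chr6:129591782-129598775) and *Klrk1* (chr6:129610323-129623864) to the 5 *Klra* members. The *Klra* members are packed into 373.8 kb, with *Klra6* (chr6:130013033-130026954), *Klra4* (chr6:130043731-130067271), *Klra8* (chr6:130115226-130129898), *Klra7* (chr6:130218605-130233322) and *Klra1* (chr6:130363917-130386874) in that order. *Klre1* and *Klrd1* are on the plus strand and the others on the minus strand.

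The results turn on a division of the *Klra* members that is visible in their first coding exon sequence, so that coding bases 4 to 33 are shown here, 5′ to 3′ on the coding strand, with codons 6 to 11 in capitals. The sequences come from the GENCODE annotation of GRCm38, each from a single exon on the minus strand of chromosome 6, at chr6:130380630-130380659 for *Klra1*, chr6:130025187-130025216 for *Klra6*, chr6:130231585-130231614 for *Klra7*, chr6:130065270-130065299 for *Klra4* and chr6:130128128-130128157 for *Klra8*.
Klra1: agtgagcaggagGTCACTTATTCAATGGTG
Klra6: agtgagccggagGTCACTTACTCAACTGTG
Klra7: agtgagcaggagGTCACTTACTCAACTGTG
Klra4: actgaacaggaaGACACTTTCTCAGCTGTG
Klra8: agtgagcaggagGTCACTTTCCCAACTATG
Codon 8 encodes tyrosine in *Klra1* (Ly49A), *Klra6* (Ly49F) and *Klra7* (Ly49G), which are known as inhibitory receptors, and the codons 6 and 11 on either side encode valine in all 3. Codon 8 encodes phenylalanine in *Klra4* (Ly49D) and *Klra8* (Ly49H), which are known as activating receptors that signal through DAP12, and Ly49H is known for recognising a protein of mouse cytomegalovirus. Over whole coding sequences, *Klra4* and *Klra8* were 78.6% identical, less than *Klra4* and *Klra1* at 88.3%, whose longest identical stretch was 78 bases. The unlisted family gene *Klra9* was 91.9% identical to *Klra8* with an identical stretch of 106 bases, so that UMIs of *Klra8*, *Klra9*, *Klra3* and their neighbors may have been assigned between copies, and values of single *Klra* genes carry that uncertainty.

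The WT library held 8654 cells and 80152071 UMIs and the DTR library 5727 cells and 81011377 UMIs, and 65 cell barcodes occurred in both. NK-like cells numbered 382 in WT and 140 in DTR, NKT-like cells 541 and 108, CD8 T-like cells 368 and 46, γδ T-like cells 483 and 72, and Treg-like cells 403 and 102. Their median depths lay between 3317 UMIs (DTR Treg-like) and 6752 UMIs (DTR CD8 T-like), and NK-like cells had 3975 in WT and 3797 in DTR. No gene of the family was used to cluster or name cells. NK-like, γδ T-like and Treg-like clusters had 10 of 11, 10 of 11 and 8 of 8 of their markers, respectively. The CD8 T-like clusters had 4 of 5 and 5 of 5. The one with 4 of 5, of 216 WT and 31 DTR cells, was only just told from NKT-like cells. It had a share of 0.8 of its own and 0.7 of the NKT markers, at the required margin of 0.1 between marker shares. The NKT-like cluster had 8 of 10, yet the receptor segments that define invariant NKT cells were nearly absent from it, with 2 UMIs of *Trav11* and 1 of *Traj18* in WT and 0 and 1 in DTR. *Zbtb16*, the transcription factor of that lineage, was found in 7.02% of its WT cells and 13% of its DTR cells, and a *Trdc* UMI in 17.2% and 5.56%. The name NKT-like is kept here for T cells that carry *Cd3e* (92.1% and 87.0% of cells) together with *Fcer1g* (76.5% and 80.6%), without a claim that they are invariant NKT cells.

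The members were spread over the 5 classes in different ways. Levels are means over cells of UMIs per 10000 UMIs of a cell, and they are compared for the same gene between classes and libraries. *Klra4*, *Klra8*, *Klrb1c* and *Klre1* were highest in NK-like cells in both libraries, *Klra1* and *Klra6* in NKT-like cells, and *Klrg1* in Treg-like cells, while *Klrd1* and *Klrk1* ran through NK-like, NKT-like and CD8 T-like cells in falling order. As cells that should lack these genes, B2 B-like cells had a UMI of any single member in at most 0.397% of WT and 0.226% of DTR cells. Neutrophil-like cells reached 4.98% in WT, for *Klrk1*, at a median depth of 8905 UMIs, and 0.403% in DTR at 3294, so that shares of a few percent are not read as expression.

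**Figure D1:**
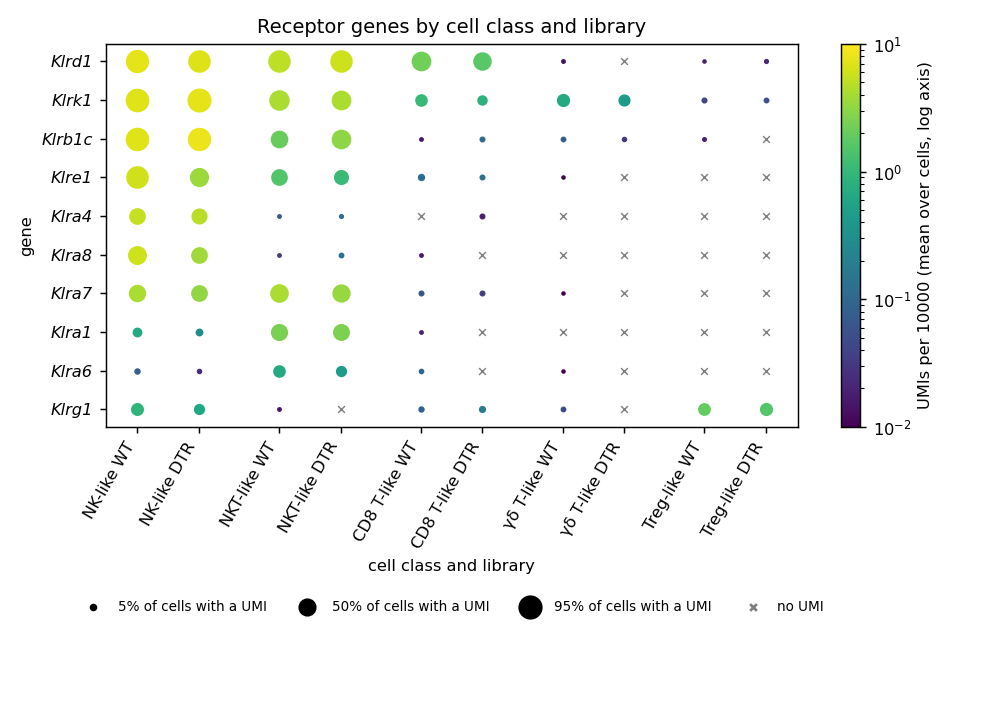
Level and detection of the 10 receptor genes in 5 lymphocyte classes of the WT and DTR libraries, with genes as rows and class and library as columns. Color gives the mean level in UMIs per 10000 on a log axis, the area of a point gives the share of cells with a UMI, and a cross marks no UMI. *Klra4* and *Klra8* have large points in NK-like cells alone among the 5 classes, *Klrg1* is seen in NK-like and Treg-like cells, and of the 10 genes only *Klrk1* has a sizeable point in γδ T-like cells.

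*Klrd1* encodes CD94, which pairs with NKG2A (*Klrc1*) or NKG2C (*Klrc2*) to read the nonclassical MHC molecule Qa-1 (*H2-T23*). In NK-like cells its level was 7.47 in WT and 6.86 in DTR, and 87.2% (95% interval 83.4 to 90.4) and 81.4% (74.0 to 87.5) of cells had a UMI. NKT-like cells had levels of 5.00 and 5.95, with a UMI in 80.6% of the cells of either library. In CD8 T-like cells the level was 2.26 in WT and 1.66 in DTR, and 60.3% (55.1 to 65.4) and 52.2% (36.9 to 67.1) of cells had a UMI. The gene was all but absent from γδ T-like cells, where 3 of 483 WT cells and 0 of 72 DTR cells (which allows up to 4.17%) had a UMI, and from Treg-like cells, where 1 cell of each library did.

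*Klrk1* encodes NKG2D, the activating receptor for stress-induced ligands that signals through DAP10. Its level in NK-like cells was 7.12 in WT and 7.54 in DTR, and 90.3% (86.9 to 93.1) and 93.6% (88.1 to 97.0) of cells had a UMI. In NKT-like cells it was 4.17 and 4.28, with 65.8% and 60.2% of cells. It was the member with most cells in γδ T-like cells, in which the level was 0.657 in WT and 0.448 in DTR and 23.6% (19.9 to 27.6) and 19.4% (11.1 to 30.5) of cells had a UMI. These shares stood above the 4.98% of WT neutrophil-like cells also after each cell was thinned to 2000 UMIs, at 10.4% (7.76 to 13.5) of WT γδ T-like cells against 2.18% (0.713 to 5.02) of WT neutrophil-like cells.

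*Klrb1c* encodes NK1.1, the activating receptor that serves as the classical NK marker of C57BL/6 mice. NK-like cells had a level of 7.19 in WT and 8.18 in DTR, with a UMI in 89.3% (85.7 to 92.2) and 87.9% (81.3 to 92.8) of cells. NKT-like cells had 2.03 and 3.05, with a UMI in 47.1% (42.9 to 51.4) and 60.2% (50.3 to 69.5). In the other 3 classes, at most 2.17% of cells had a UMI, less than the 2.90% of WT neutrophil-like cells.

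*Klre1* encodes a receptor that pairs with *Klri1* or *Klri2* chains. Its level in NK-like cells was 6.03 in WT and 3.51 in DTR. A UMI was found in 81.7% (77.4 to 85.4) of WT and 56.4% (47.8 to 64.8) of DTR NK-like cells, and these counting intervals did not overlap. In NKT-like cells the level was 1.53 and 1.07, in 41.2% (37.0 to 45.5) and 32.4% (23.7 to 42.1) of cells. Its activating partner *Klri2* was seen in 51.0% of WT and 47.1% of DTR NK-like cells.

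The phenylalanine-bearing *Klra4* and *Klra8* were NK genes. *Klra4* had a level of 5.51 in WT and 4.87 in DTR NK-like cells, with a UMI in 41.6% (36.6 to 46.7) and 37.9% (29.8 to 46.4). *Klra8* had 5.93 and 3.78, with a UMI in 55.0% (49.8 to 60.04) and 41.4% (33.2 to 50.1). NKT-like cells had a UMI of *Klra4* in 3 of 541 WT and 1 of 108 DTR cells and of *Klra8* in 3 and 2 cells. Of all UMIs in the WT library, NK-like cells held 95.3% of those of *Klra4* and 94.2% of those of *Klra8*. In the DTR library these shares were 75.6% and 75.9%, and cycling T-like cells held a further 15.5% and 13.7%, from 3 and 4 cells.

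The tyrosine-bearing members were spread differently. *Klra7* was in both classes, with levels of 4.14 in WT and 3.14 in DTR NK-like cells and of 4.15 and 3.38 in NKT-like cells, and with a UMI in 45% (40.0 to 50.2), 41.4% (33.2 to 50.1), 53.2% (48.9 to 57.5) and 50.9% (41.1 to 60.7) of cells in that order. *Klra1* was mostly an NKT-like gene, at 2.49 in WT and 2.55 in DTR NKT-like cells (43.8% and 42.6% of cells) against 0.641 and 0.298 in NK-like cells (11% and 5.71%). *Klra6* followed it at a lower level, at 0.685 and 0.433 in NKT-like cells (21.3% and 15.7%) against 0.0793 and 0.0238 in NK-like cells (2.88% and 1.43%). NKT-like cells held 70.1% of the WT UMIs of *Klra1* and 74.3% of those of *Klra6*.

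Cells were then sorted by the kind of *Klra* gene they carried, by codon 8, among the 5 listed members only. Other *Klra* genes were not sorted, so that cells with 1 kind alone or with neither may carry another of them. With *Klra3*, *Klra5*, *Klra9* and *Klra10* counted too, 18.1% of WT and 28.6% of DTR NK-like cells had no UMI of these 9 genes. Among WT NK-like cells, 27.5% (23.1 to 32.3) had UMIs of the phenylalanine-bearing genes alone, 8.12% (5.58 to 11.3) of the tyrosine-bearing genes alone, 40.1% (35.1 to 45.2) of both kinds and 24.3% of neither. Among DTR NK-like cells these shares were 22.1% (15.6 to 29.9), 12.1% (7.24 to 18.7), 31.4% (23.9 to 39.8) and 34.3% (26.5 to 42.8). In NKT-like cells, 66.7% (62.6 to 70.7) of WT and 63.0% (53.1 to 72.1) of DTR cells had the tyrosine-bearing genes alone, and both kinds occurred in 0.555% and 1.85%. Thinned to 2000 UMIs per cell, 28.7% of WT and 21.6% of DTR NK-like cells and 0.192% and 0.990% of NKT-like cells had both kinds, and the tyrosine-bearing genes alone were in 56.1% and 51.5% of NKT-like cells.

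*Klrg1* encodes an inhibitory receptor for cadherins that is known from mature NK cells, effector CD8 T cells and tissue Treg cells. Its level was 1.90 in WT and 1.59 in DTR Treg-like cells, with a UMI in 21.8% (17.9 to 26.2) and 23.5% (15.7 to 33). In NK-like cells it was 0.897 and 0.620, in 22.8% (18.7 to 27.3) and 15.7% (10.1 to 22.8). NKT-like cells were nearly without it, in 3 of 541 WT cells and 0 of 108 DTR cells, which allows up to 2.78%. The opposite held in Treg-like cells for the rest of the family, as the 5 *Klra* members and *Klre1* had 0 UMIs in 403 WT cells (up to 0.744%) and in 102 DTR cells (up to 2.94%), and *Klrd1*, *Klrk1* and *Klrb1c* were in at most 2.23% of the cells of either library.

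NK-like cells often carried several *Klra* members. In WT, 24.3% had a UMI of none of the 5, 25.7% of 1, 24.6% of 2, 20.9% of 3 and 4.45% of 4. In DTR the shares were 34.3%, 22.1%, 27.1%, 14.3% and 2.14% in that order. Thus 50% (44.9 to 55.1) of WT and 43.6% (35.2 to 52.2) of DTR NK-like cells had 2 or more, and the intervals overlapped. In NKT-like cells 39.2% (35.1 to 43.4) and 36.1% (27.1 to 45.9) had 2 or more. In CD8 T-like cells, 5 of 368 WT and 0 of 46 DTR cells did, the latter allowing up to 6.52%.

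**Figure D2:**
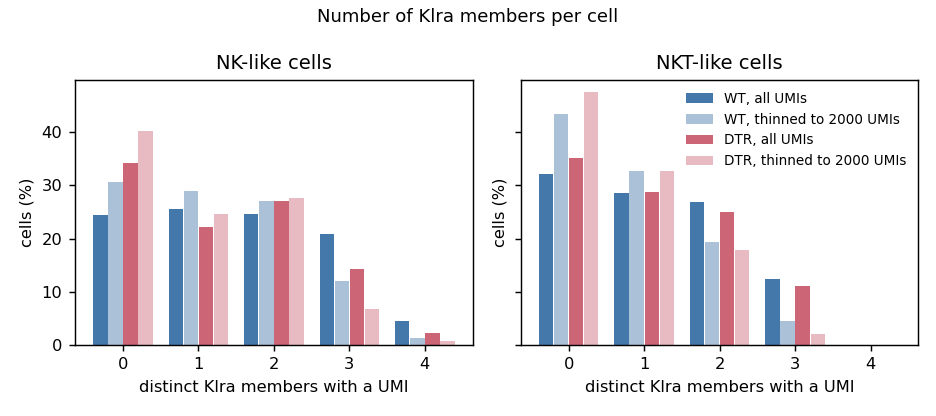
Share of NK-like cells (left) and NKT-like cells (right), in percent, by the number of distinct *Klra* members with a UMI, from 0 to 4. Dark bars use all UMIs and pale bars use cells thinned to 2000 UMIs, for WT (blue) and DTR (red). In NK-like cells the bar at 0 is 24.3% in WT and 34.3% in DTR, and at 3 it is 20.9% and 14.3%.

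*Klra4*, *Klra7* and *Klra8* were often detected in the same NK-like cells. A *Klra8* UMI was in 69.8% (62.0 to 76.8) of the WT NK-like cells with a *Klra4* UMI and in 44.4% (37.8 to 51.2) of those without. In DTR these shares were 67.9% (53.7 to 80.1) and 25.3% (16.6 to 35.7). A *Klra7* UMI was in 63.5% (55.5 to 71.0) of WT NK-like cells with *Klra4* and in 31.8% of those without, and in 58.5% and 31.0% in DTR. The cells with and without *Klra4* had close median depths, 3849 and 4015 UMIs in WT and 3693 and 3845 in DTR. In NKT-like cells, *Klra7* was in 87.8% (80.4 to 93.2) of WT cells with *Klra6* and in 43.9% of those without, and in DTR in all 17 cells with *Klra6* and in 41.8% of the others. In WT NK-like cells, *Klra4* was in 69.0% (52.9 to 82.4) of cells with *Klra1* and in 38.2% of those without. *Klra7* was in 76.2% (60.55 to 87.9) and 41.2% of the same cells. The intervals did not overlap for either gene, but the cells with *Klra1* were deeper, at median depths of 4736 and 3903 UMIs. *Klra8* did not separate in this way with *Klra1* or *Klra6*. It was in 61.9% (45.6 to 76.4) of WT NK-like cells with *Klra1* against 54.1% (48.7 to 59.5) of those without, and in 5 of the 11 with *Klra6* against 55.3%. These pairs are printed as a description, and reads shared between copies were not tested as their source.

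*Klra1* also divided the NKT-like cells. Of the 237 WT cells with a *Klra1* UMI, 72.2% (66.0 to 77.8) had *Klra7*, 80.6% (75.0 to 85.4) *Klrk1*, 61.6% (55.1 to 67.8) *Klrb1c* and 57.4% (50.8 to 63.8) *Klre1*, against 38.5%, 54.3%, 35.9% and 28.6% of the 304 cells without. Cells with *Klra1* had *Fcer1g* in 92.8% against 63.8% and *Xcl1*, a chemokine gene of cytotoxic lymphocytes, in 82.7% against 61.8%, but *Trdc* in 8.44% (5.23 to 12.7) against 24% (19.3 to 29.2). Their median depths were 5189 and 4529 UMIs. In DTR, 46 cells with *Klra1* and 62 without differed in the same direction for these genes, with *Klra7* in 67.4% against 38.7%, *Klrk1* in 76.1% against 48.4%, *Klrb1c* in 78.3% against 46.8% and *Klre1* in 37.0% against 29.0%, at median depths of 5344.5 and 4171 UMIs.

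The DTR library was then set against WT within NK-like cells. Ratios are log2 ratios of DTR over WT of the mean level, each followed by the 95% counting interval of the ratio from summed UMIs, and a gene was ranked if it had at least 50 UMIs over both libraries in the class. Of the 5941 ranked genes, 1.95% were lower by 2-fold or more in DTR and 1.16% higher. Of the 9 members ranked, *Klra1* was lower past 2-fold and none was higher. That call ended, at −0.55, when classes were gated on UMIs of lineage genes, and also when cells with innate lymphoid markers were left out. The median ratio of the 9 was −0.40, against −0.06 over all ranked genes, and *Klra6*, with 11 UMIs in WT and 2 in DTR, was too low to rank.

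*Klra1* had a ratio of −1.11 (−2.14 to −0.57), from 112 UMIs in WT and 17 in DTR, the latter in 8 cells. *Klre1* was next at −0.78 (−1.07 to −0.62) and *Klra8* at −0.65 (−0.99 to −0.54). *Klrg1* stood at −0.53 (−1.14 to −0.02) and *Klra7* at −0.40 (−0.64 to −0.16). The intervals of these members lay below 0. The share of all ranked genes with such an interval is not given here, so that their number is not read as a result. *Klra4*, at −0.18 (−0.34 to 0.05), and *Klrd1*, at −0.12 (−0.30 to 0.03), had intervals that included 0. *Klrk1* at 0.08 (−0.16 to 0.16) and *Klrb1c* at 0.19 (−0.02 to 0.30) stood above it with intervals that included 0 as well. Of the activating pair, the counting interval of *Klra8* lay wholly under that of *Klra4*.

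**Figure D3:**
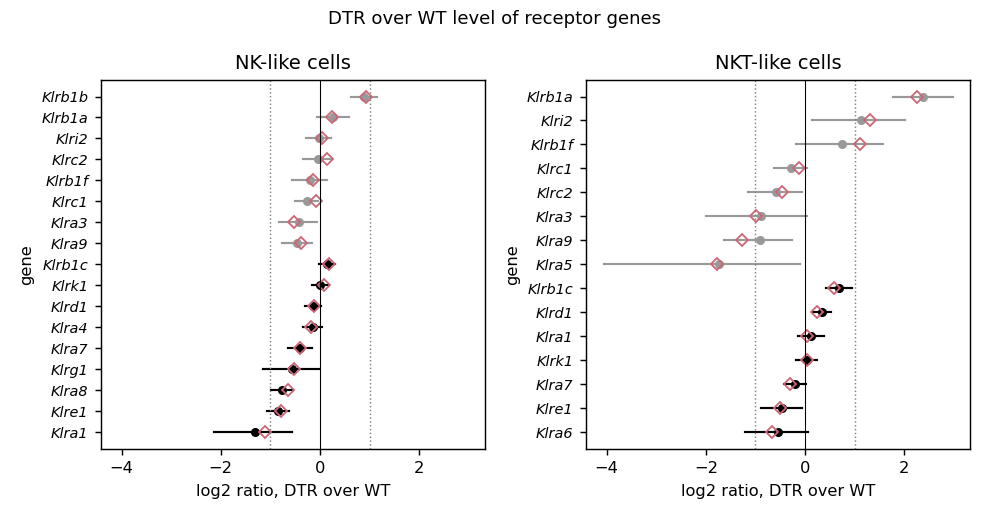
Log2 ratio of DTR over WT for the receptor genes with at least 50 UMIs in NK-like cells (left) and NKT-like cells (right), with members in black and other genes of the family in gray. Dots and bars are the ratio of summed UMIs with its 95% counting interval, open diamonds the ratio of mean levels, and dotted lines mark 2-fold. In NK-like cells *Klra1*, *Klre1* and *Klra8* lie lowest and *Klrb1b* lies highest, and in NKT-like cells *Klrb1a* lies highest.

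Detection of *Klre1* in NK-like cells differed at a matched depth too. With each cell thinned to 2000 UMIs, 64.8% (59.7 to 69.6) of WT and 42.5% (34.0 to 51.4) of DTR cells had a UMI. *Klra8* was in 46.1% (40.9 to 51.3) and 33.6% (25.7 to 42.2) of thinned cells, whose intervals overlapped. *Klrk1* was in 74.0% (69.2 to 78.4) and 81.3% (73.7 to 87.5), and *Klra4* in 35.5% and 36.6%.

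Some genes of other innate lymphoid cells also differed in NK-like cells, and not in one direction. Of 9 genes of a list for type 1 innate lymphoid cells, 5 were ranked in NK-like cells, with a median of 0.44 against −0.06 over all ranked genes. Among the 5, *Tmem176b* was higher past 2-fold (1.40), where 1.16% of all ranked genes were higher, and 1 was below 0. The summed level of the 9 genes was 4.98 in WT and 8.12 in DTR, and none of them was at 0 in both. The defining genes *Itga1* and *Zfp683* were in 3.14% and 2.88% of WT and 1.43% and 0.714% of DTR NK-like cells. Both had too few UMIs to rank, 16 and 11 in WT and 2 and 1 in DTR, and the intervals of these shares overlapped. *Cd200r1* of the same list, also unranked, went the other way, in 3.66% of WT and 12.9% of DTR cells. It had 17 and 23 UMIs, and its intervals did not overlap. *Tnfsf10*, unranked too, was in 4.71% and 4.29%, on 20 and 7 UMIs. The part of the listed genes in the receptor ratios was not tested as a cause. Cells with a UMI of *Il7r*, *Cxcr6*, *Itga1*, *Tmem176a* or *Tmem176b* made up 32.7% of WT and 44.3% of DTR NK-like cells, and without them 257 and 78 cells remained. Among those the ratio of *Klre1* was −0.71, with a UMI in 88.3% (83.8 to 92.0) of WT and 64.1% (52.4 to 74.7) of DTR cells. *Klra1* moved to −0.55 and was no longer past 2-fold, *Klra8* stood at −0.48 and *Klra7* at −0.25. *Klra4* turned to 0.12, *Klrb1c* stood at 0.40 and *Klrg1* at −0.57.

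**Figure D4:**
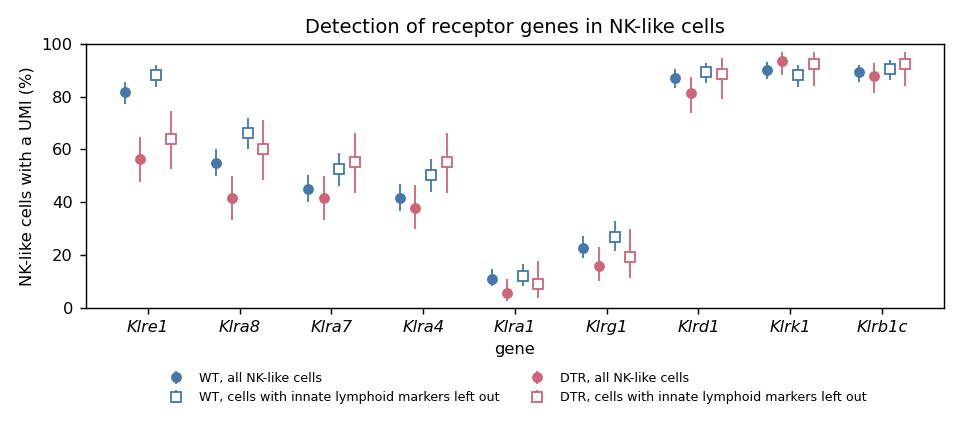
Share of NK-like cells with a UMI of each member, in percent, with 95% exact binomial intervals, for WT (blue) and DTR (red). Filled circles are all NK-like cells and open squares the cells without a UMI of *Il7r*, *Cxcr6*, *Itga1*, *Tmem176a* or *Tmem176b*. The *Klre1* points of WT (81.7% and 88.3%) lie above those of DTR (56.4% and 64.1%) in both sets, and the points of *Klra4* and *Klra7* overlap.

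The maturation genes of NK cells were read beside the receptors. All 16 of the list were ranked, and their median was −0.37 against −0.06 over all ranked genes. *Zeb2* (−1.29), a transcription factor of late NK maturation, and *Kit* (−1.20), a marker of immature cells, were lower past 2-fold and none was higher. Of all ranked genes, 1.95% were lower past it and 1.16% higher. *Prf1*, encoding perforin, stood at −0.82 and *S1pr5*, an egress receptor, at −0.65, whereas *Gzmb*, encoding granzyme B, stood at 0.51. Of the signaling list, 16 genes were ranked in NK-like cells, none was past 2-fold, and the median was −0.27. *Tyrobp*, the adaptor of Ly49D and Ly49H, stood at −0.60 with a level of 35.3 in WT and 23.4 in DTR. *Hcst* stood at −0.39, *Fcer1g* at −0.32 and the phosphatase gene *Ptpn6*, which acts below inhibitory receptors, at −0.93.

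The other family members in NK-like cells showed no single direction. *Klrb1b*, an inhibitory relative of *Klrb1c*, had a ratio of 0.93 (0.62 to 1.15), with a level of 1.88 in WT and 3.58 in DTR and a UMI in 37.2% (32.3 to 42.2) and 55.7% (47.1 to 64.1). *Klra3* stood at −0.52 (−0.82 to −0.06) and *Klra9* at −0.37 (−0.77 to −0.17), both with intervals below 0. *Klrc1* (−0.09), *Klrc2* (0.13), *Klri2* (0.05), *Klrb1a* (0.24) and *Klrb1f* (−0.13) had smaller ratios of mean level. By summed UMIs *Klrc1* stood at −0.27, with an interval of −0.50 to −0.04 below 0, and the intervals of the others included 0.

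NK-like cells with and without a *Klrg1* UMI differed in some of the listed genes of maturity. In WT, 87 cells had one and 295 did not, and *Itgam*, a marker of mature NK cells, was in 63.2% (52.2 to 73.3) against 34.9% (29.5 to 40.7). *Gzmb* was in 69.0% (58.1 to 78.4) against 38.3% (32.7 to 44.1) and the chymase gene *Cma1* in 50.6% (39.6 to 61.5) against 25.4% (20.6 to 30.8). *Il7r* was in 16.1% (9.09 to 25.5) against 28.8% (23.7 to 34.3), with overlapping intervals. The intervals also overlapped for *Tbx21* (71.3% against 62.4%), *Eomes* (72.4% against 62.0%) and *Cd27* (33.3% against 39.3%). The median depths were 4341 and 3875 UMIs. In DTR, with 22 and 118 cells, *Itgam* was in 72.7% (49.8 to 89.3) against 28.8% (20.9 to 37.9). *Cma1* was in 59.1% (36.4 to 79.3) against 24.6% (17.1 to 33.4). *Gzmb* was in 77.3% (54.6 to 92.2) against 48.3% (39.0 to 57.7), with overlapping intervals. *Klra8* went with *Klrg1* in WT, in 71.3% (60.6 to 80.5) against 50.2% (44.3 to 56.0), and in DTR it was in 50% (28.2 to 71.8) against 39.8% (30.9 to 49.3).

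In NKT-like cells, 7 members were ranked among 6552 genes, of which 3.28% were lower and 1.79% higher past 2-fold. No member was past 2-fold in either direction, and their median was 0.04 against −0.01 over all ranked genes. *Klrb1c* stood at 0.59 (0.43 to 0.95) and *Klrd1* at 0.25 (0.16 to 0.51), both with intervals above 0. *Klre1* stood at −0.51 (−0.90 to −0.06), and *Klra6* at −0.66 (−1.22 to 0.05). *Klra7* at −0.30 (−0.43 to 0.02), *Klra1* at 0.04 (−0.14 to 0.38) and *Klrk1* at 0.04 (−0.17 to 0.25) had intervals that included 0. Here too the share of all ranked genes with an interval above or below 0 is not given. Members with such an interval are therefore not read as a result. Of the 9 listed NKT genes, 7 were ranked, none was past 2-fold, and their median was 0.02. Markers of other lymphocytes moved in these cells as well. The NK receptor gene *Ncr1* (−1.23) and *Trdc* (−2.25) were lower past 2-fold, and the CD8 coreceptor gene *Cd8b1* was higher past it at 1.04 (0.20 to 1.42), with *Cd8a* at 0.97 (0.24 to 1.38). The part of these markers in the receptor ratios was not tested. Cells with a *Trdc* UMI, 93 in WT and 6 in DTR, moved between the libraries, and without them *Klrb1c* stood at 0.63, *Klre1* at −0.57, *Klra6* at −0.73 and *Klra1* at −0.06.

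*Klre1* and *Klra7* thus had negative ratios in both NK-like and NKT-like cells, and *Klrb1c* and *Klrk1* positive ones. Of these, only *Klre1* had intervals without 0 in both classes. The interval of *Klrb1c* included 0 in NK-like cells, that of *Klra7* in NKT-like cells and that of *Klrk1* in both. Among the other family genes of NKT-like cells, *Klrb1a*, an activating relative of *Klrb1c*, stood at 2.26 (1.78 to 2.98), with a UMI in 7.02% (5.02 to 9.51) of WT and 24.1% (16.4 to 33.3) of DTR cells. *Klri2* (1.32) and *Klrb1f* (1.11) were also higher past 2-fold, on 15 and 16 UMIs in DTR (the interval of *Klrb1f*, −0.17 to 1.57, included 0), and *Klra5* (−1.78) and *Klra9* (−1.28) lower, on 3 and 21. Of 16 signaling genes ranked there, *Tyrobp* was lower past 2-fold (−1.21), with a level of 5.34 in WT and 2.30 in DTR, and none was higher. In NKT-like cells 3.28% of all ranked genes were lower past 2-fold. In the other classes, *Zap70* was lower past 2-fold in CD8 T-like cells (−1.07), as 1 of 13 genes ranked where 7.01% of all ranked genes were lower. *Syk* was lower past 2-fold in γδ T-like cells (−1.03), as 1 of 14 where 7.7% of all were, but on 4 DTR UMIs and with an interval of −2.95 to 0.42 that included 0. None of 13 was past it in Treg-like cells. Of 10 memory genes ranked in NKT-like cells, *Ccr7* was lower past 2-fold (−1.23), and of 11 ranked in CD8 T-like cells none was past it.

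CD8 T-like cells held 2 clusters. In the cluster with *Ccl5* in every cell, which held 216 WT and 31 DTR cells, *Klrk1* was in 34.7% (28.4 to 41.5) of WT and 19.4% (7.45 to 37.5) of DTR cells. In the other, with *Ccr7* in 90.8% of WT cells, it was in 1.97% of 152 WT cells and 0 of 15 DTR cells, which allows up to 20%. *Klrd1* was in 62.0% (55.2 to 68.5) of the WT cells of the first cluster and 57.9% (49.6 to 65.8) of those of the second, at levels of 2.62 and 1.74. In DTR it was in 58.1% (39.1 to 75.5) and 40% (16.3 to 67.7), at levels of 2.13 and 0.690. Over both clusters, 2 members were ranked among 5406 genes, of which 7.01% were lower and 2.05% higher past 2-fold, and neither was past it, with *Klrd1* at −0.44 (−0.69 to 0.13) and *Klrk1* at −0.29 (−1.10 to 0.21). *Klrc1*, the inhibitory partner of *Klrd1*, stood at 1.41 (0.85 to 2.13), with 31 UMIs in 7 of 46 DTR cells.

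Among CD8 T-like cells of WT, those with and without *Klrk1* differed in memory genes, but they also differed in cluster. Of the cells with *Klrk1*, 75 lay in the cluster with *Ccl5* in every cell and 3 in the other. *Ccr7* was in 43.5% of the WT cells of the first cluster and 90.8% of those of the second. The comparison that follows is over both clusters and was not made within them. The 78 cells with a UMI had *Tbx21*, encoding T-bet, in 50% (38.5 to 61.5) against 22.1% (17.4 to 27.3) of the 290 without. *Ccr7*, a homing receptor of naive and central memory cells, was in 37.2% (26.5 to 48.9) against 70.0% (64.4 to 75.2), and *Klre1* in 14.1% (7.26 to 23.8) against 2.07% (0.763 to 4.45). Median depths were 5533 and 5765 UMIs.

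In γδ T-like cells, *Klrk1* was the single member ranked among 6686 genes, of which 7.7% were lower and 2.33% higher past 2-fold. Its ratio was −0.55 (−1.18 to 0.28), from 168 UMIs in WT and 19 in DTR. The 114 WT cells with a *Klrk1* UMI had *Il17a*, the cytokine gene of one γδ T lineage, in 36.8% (28.0 to 46.4) against 14.6% (11.2 to 18.7) of the 369 without, and *Trdc* in 84.2% (76.2 to 90.4) against 56.4% (51.1 to 61.5). Their median depths were 5525.5 and 4790 UMIs. In DTR, with 14 and 58 cells, *Il17a* was in 35.7% (12.8 to 64.9) against 36.2% (24 to 49.9).

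In Treg-like cells, *Klrg1* was the single member ranked among 6078 genes, of which 4.28% were lower and 2.2% higher past 2-fold. Its ratio was −0.25 by mean level and 0.02 (−0.38 to 0.41) by summed UMIs. Some genes known from tissue Treg cells, but not all of those listed, were detected more often in Treg-like cells with *Klrg1*. *Il1rl1*, encoding the interleukin-33 receptor ST2, was in 55.7% (44.7 to 66.3) of the 88 WT cells with a *Klrg1* UMI and in 14.9% (11.2 to 19.3) of the 315 without. In DTR it was in 75.0% (53.3 to 90.2) of 24 cells and 14.1% (7.26 to 23.8) of 78. *Areg*, encoding the repair factor amphiregulin, was in 68.2% (57.4 to 77.7) against 39.4% (33.9 to 45) in WT and in 70.8% (48.9 to 87.4) against 32.1% (21.9 to 43.6) in DTR. *Gata3* was in 75.0% (64.6 to 83.6) against 54.6% (48.9 to 60.2) in WT, and in 58.3% (36.6 to 77.9) against 47.4% (36.0 to 59.1) in DTR. *Ikzf2* was in 81.8% against 67.0% in WT. *Ccr8* (34.1% against 21.3%) and *Tnfrsf9* (48.9% against 37.5%) had overlapping intervals in WT. *Batf* was in 53.4% (42.5 to 64.1) against 46.0% (40.4 to 51.7) in WT. In DTR it went the other way, in 37.5% (18.8 to 59.4) against 50% (38.5 to 61.5). Median depths were 3960.5 and 4432 UMIs in WT and 3408.5 and 3281.5 in DTR, so that the WT cells with *Klrg1* were the shallower ones. Over the whole list of 10 tissue Treg genes, 7 were ranked, *Tnfrsf9* was higher past 2-fold in DTR (1.26) and none lower, and the median was 0.27.

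**Figure D5:**
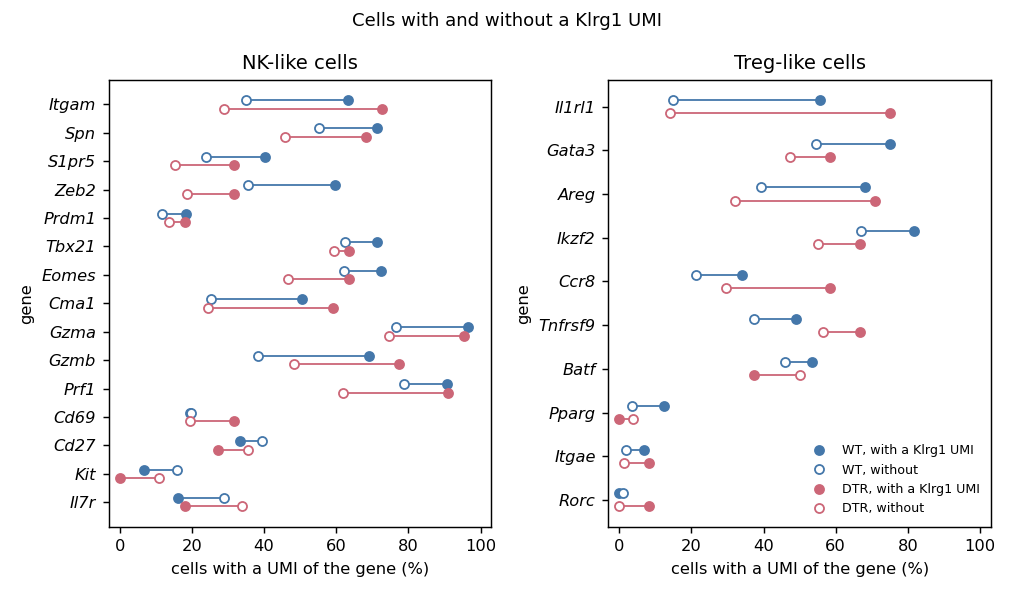
Share of cells with a UMI of each gene, in percent, among NK-like cells (left) and Treg-like cells (right) with a *Klrg1* UMI (filled) and without (open), for WT (blue) and DTR (red). *Itgam* is in 63.2% against 34.9% of WT NK-like cells, and *Il1rl1* in 55.7% against 14.9% of WT Treg-like cells.

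The ligands of these receptors were read in the same classes, from a list of 12 genes of which 6 were ranked in each. In NK-like cells the 6 had a median ratio of −0.10 and none was past 2-fold. *H2-D1*, a classical MHC class I gene read by Ly49 receptors, had levels of 39.9 in WT and 36.6 in DTR NK-like cells, and *H2-K1* 39.0 and 40.9. *H2-T23* stood at −0.24 there and at −0.88 in γδ T-like cells, where its level was 5.45 in WT and 2.95 in DTR. *Clec2d*, which encodes a ligand of the *Klrb1* receptors, was lower past 2-fold in CD8 T-like cells (−1.07), as 1 of 6 where 7.01% of all ranked genes were lower, and no other ranked ligand gene was past 2-fold in the 5 classes. The NKG2D ligand genes *Raet1d* and *Raet1e* had 0 UMIs in all 5 classes of both libraries. The other NKG2D ligand genes of the list, *Ulbp1* and *H60b*, had few, at most 12 and 6 UMIs in a class of 1 library, and were not ranked.

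The genes most like each member were sought over 38 profiles, each a cell class of 1 library, by the Pearson correlation of log2 levels with a pseudocount of 0.05. *Klra4* and *Klra8* were each the nearest to the other (r = 0.988), and *Klra1* was nearest to *Klra7* (r = 0.924) and *Klra6* to *Klra1* (r = 0.902). *Klra7* and *Klre1* were nearest to *Klrc2* (r = 0.981 and 0.974). *Klrb1c* was nearest to *Ncr1* (r = 0.918), the gene of the NK receptor NKp46, *Klrd1* to *Ccl5* (r = 0.889) and *Klrk1* to *Tbx21* (r = 0.884). *Klrg1* had no partner within the family, with *Chrne* nearest (r = 0.814). The profiles share libraries and depths, so that these values describe the classes and no test was made.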

How the data were processed

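Single-cell suspensions of omentum, with the mice of a group pooled, were run on the 10x Chromium platform. The submitters' processing notes name Cell Ranger 6.0.0 and mm10, and the study's methods name another version of Cell Ranger, a 3′ kit, filters on detected genes and mitochondrial reads and SCTransform without batch correction, while the labels name a 5′ kit. The matrices deposited by the authors hold natural log values of 1 plus UMIs scaled to 10000 per cell. These were brought back to the linear scale, and whole UMIs were recovered within 0.1 UMI for 99.9475% of WT and 99.8788% of DTR values. Cells with 200 to 7500 genes and at most 25% mitochondrial UMIs were kept, 8654 of 8686 barcodes in WT and 5727 of 5736 in DTR. Clusters were made with R 4.3.3, Seurat 5.3.0 and sctransform 0.4.2 from 3000 variable features without V(D)J genes and without 19 genes of the family, with 30 principal components and a resolution of 0.8. The cluster that held NKT-like and memory CD8 cells was split again at 0.2. Clusters were named from marker genes at 2-fold (pseudocount 0.02) and 10% of cells, requiring 3 markers or more, a marker share of 0.5 and a margin of 0.1 over the next class, and this scoring and the split were set after the clusters were seen. Scrublet in scanpy 1.11.5 (Python 3.11.15) marked 1.56% of WT and 1.80% of DTR cells at a score of 0.25, a cut set because the automatic one marked 2 WT cells, and these cells were kept. Blank symbols (1060) were filled from a gene name table.

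Levels are means over cells of the linear values. Shares of cells carry exact Clopper-Pearson intervals and ratios of summed UMIs exact conditional binomial intervals (scipy 1.17.1, 95%, counting error only), and a share of 0 is printed with the limit that 3 counts allow. In each class, genes with 50 UMIs or more in the 2 libraries together were ranked at 2-fold. Cells were thinned by drawing exactly 1000 or 2000 of their UMIs without replacement. This left out shallower cells, at most 19 of a class and library at 2000 in the 5 classes. No test between groups was possible with 1 library each. The ratio step was tested on simulated counts. Named genes were the 10 members, other family genes with at least 50 UMIs and the listed signaling, ligand, maturation, innate lymphoid, NKT, memory CD8 and tissue Treg genes. Members and lists were chosen with earlier results of these data known. The alternatives tried were other totals, centring, clusterings, gates on lineage genes, UMI minimums, doublets, thinning and cells left out.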

Additional observations from a re-analysis of the deposited data

How the results depend on the processing

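No paired analysis was possible because the labels carry no replicate numbers and each group is 1 library, so that no value here has a replicate check. The log2 ratios of the 20 ranked member and class pairs moved by less than 0.5 of the width of their counting interval under other totals, centring, clusterings, gates, a minimum of 500 genes and without doublets (19 when family genes were kept for clustering, where no Treg-like class was named), and 19 or 20 of them kept their direction. Of the alternatives added after seeing the data, leaving out NK-like cells with innate lymphoid markers moved *Klra4* to 0.12 and *Klrb1c* to 0.40. The call of *Klra1* in NK-like cells rested on 17 DTR UMIs: it was kept without called doublets (−1.06) and with family genes used for clustering (−1.14), but with classes gated on UMIs of lineage genes it stood at −0.55 and 0 members were lower in NK-like cells. With those gates 1 member was lower in NKT-like (*Klrg1*), γδ T-like (*Klra1*) and Treg-like cells (*Klrd1*) and the genes lower and higher numbered 202 and 108 in NK-like, 363 and 331 in NKT-like and 455 and 230 in Treg-like cells, and those higher 241 in CD8 T-like cells, against 116 and 69, 215 and 117, 260 and 134, and 111. The counts of genes followed the UMI minimum. At 20 UMIs, 374 genes were lower and 257 higher in NK-like, 524 and 350 in NKT-like, 864 and 353 in CD8 T-like, 1062 and 372 in γδ T-like and 623 and 367 in Treg-like cells, and in CD8 T-like cells 1 member was lower (*Klra6*, 20 and 0 UMIs) and 1 higher (*Klrg1*, 17 and 3 UMIs). At 100 UMIs the counts were 41 and 25, 69 and 39, 126 and 41, 234 and 72, and 93 and 50. The share of NK-like cells with 2 or more *Klra* members was 38.0% in WT and 31.4% in DTR when a gene counted from 2 UMIs, and 40.4% and 35.1% after thinning to 2000 UMIs. Of 41 shares of cells with a UMI, 36 moved beyond their interval after thinning to 2000 UMIs and all 41 after thinning to 1000, so that shares of cells move with depth. The cause of the other moves was not tested.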

Other observations

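Some members were also found outside the 5 classes. *Klrg1* was in 59.3% (51.9 to 66.3) of WT and 32% (25 to 39.6) of DTR cells of the type 2 innate lymphoid (ILC2)-like class, with levels of 3.01 and 1.47, and after thinning to 2000 UMIs in 39.7% (32.6 to 47.1) and 25.3% (18.6 to 33.1). ILC2-like cells held 27.8% of the WT UMIs of *Klrg1* and 39.5% of the DTR UMIs, beside 35.3% and 25.1% in Treg-like cells. *Klrd1* was in 47.7% (43.0 to 52.5) of WT and 31.1% (20.8 to 42.9) of DTR dendritic-like cells, whose median depths were 11136 and 7700 UMIs, and at 2000 UMIs in 26.3% (22.2 to 30.6) and 15.5% (7.996 to 26.0). It was also in 50 of 61 WT and 10 of 13 DTR plasmacytoid dendritic-like cells. *Klrk1* was in 68.2% (60.1 to 75.5) of 151 WT and 12 of 15 DTR cells of the cDC1-like class, whose median depths were 21129 and 15950 UMIs, and in 16.1% and 20% of them at 2000 UMIs.

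Other genes of the family had cells of their own. *Klra2* and *Klra17*, which are known from myeloid cells and were chosen here after their values were seen, had 0 UMIs in NK-like cells of both libraries, and *Klra17* was in 18.7% (14 to 24.2) of WT and 7.92% (6.08 to 10.1) of DTR neutrophil-like cells, whose median depths were 8905 and 3294 UMIs. At 2000 UMIs these shares were 6.55% (3.71 to 10.6) and 5.23% (3.58 to 7.34), with overlapping intervals, and the levels were 0.272 and 0.261. *Klrb1b* was in 37 of 55 WT and 40 of 49 DTR cells of the LTi-like class, with levels of 2.30 and 4.51, and at 2000 UMIs in 49.1% (35.4 to 62.9) and 40.8% (27.0 to 55.8).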
